A study of Homo sapiens with 12 samples.

Results

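The 73 genes described here encode heat shock proteins, their J-domain partners of the DNAJ series and NUDC. They were taken from 60314 named genes by symbol: the HSPA and HSPB series, the HSP90 genes HSP90AA1, HSP90AB1 and HSP90B1, HSPD1, HSPE1 and HSPH1, the DNAJA, DNAJB and DNAJC series, and NUDC. The set holds 15 HSPA, 8 HSPB, 3 HSP90, 4 DNAJA, 13 DNAJB and 26 DNAJC genes, HSPH1, the chaperonin genes HSPD1 and HSPE1, and NUDC. RNA sequencing was carried out on C4-2B and 22RV1, both established lines of castration-resistant prostate cancer labelled as wild type. In each line 3 libraries came from cells given the 56-mer at 50 nM and 3 from controls without it, and all cells received 2 mM L-glutamine in medium otherwise free of it for 48 h. The 56-mer is an aptamer, a folded nucleic acid made to bind a target. The labels name no control oligonucleotide, so the presence of any oligonucleotide and the sequence of this one cannot be told apart.

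Chaperones bind unfolded or partly folded proteins and keep them from clumping. HSP70 proteins (the HSPA series) cycle on and off a substrate as they use ATP, J-domain proteins deliver substrates and start that ATP use, and HSPH1-type proteins release the spent nucleotide. HSP90 finishes the folding of signalling proteins, among them the androgen receptor on which prostate cancer cells depend, and NUDC is a dynein-associated protein that also works with HSP90. Small heat shock proteins (the HSPB series) hold unfolded proteins without ATP, and HSPD1 with its lid HSPE1 forms the folding chamber of mitochondria. Under heat or protein damage the factor HSF1 raises many of these genes through heat shock elements in their promoters.

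Reads per library numbered 8847368 to 13740386, which limits the precision of genes with few reads. All 7 luminal prostate markers were present in both lines; their summed values in C4-2B were 30021 to 31978 with 56-mer and 28097 to 29379 in controls, and the part of this in the results was not tested. By contrast, the basal markers KRT5 and TP63 were at 0 in both lines. With KRT14 added, the basal sum reached at most 10.7 in C4-2B and 6.25 in 22RV1. Fibroblast markers summed to 277 to 435 in C4-2B and 311 to 446 in 22RV1. Leukocyte markers summed to 73.7 to 222 in C4-2B and 8.03 to 50.6 in 22RV1. For endothelial markers the sums were 84.7 to 231 in C4-2B and 0 to 8.20 in 22RV1. In each line the 56-mer 1 library had the strongest trend with transcript length or GC content, although in C4-2B other libraries came close. In C4-2B its values relative to the other libraries fell with transcript length (Spearman rho −0.334 across 10692 genes), and in 22RV1 they fell with GC content (rho −0.583 across 12552 genes). Length also separated the groups in C4-2B, since the other 56-mer libraries had rho values of −0.106 and 0.0177 with it, against 0.0645, 0.199 and 0.247 in the controls. In C4-2B the 56-mer 2 and 3 libraries had rho values of 0.305 and 0.317 with GC content, against −0.208 to −0.00558 in the controls. The 56-mer 1 library, at −0.176, lay within the range of the controls. The part of these trends in the results below was not tested beyond the correction and the left-out libraries that are given with them. Values below are normalized read counts unless they are given as RPKM, that is, reads divided by the exon length of the gene and by the reads of its library, the only scale on which different genes are compared. The lines were normalized separately, so levels of C4-2B and 22RV1 are set side by side without a test.

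In control cells the 3 HSP90 genes, HSPA8, HSPD1 and HSPB1 held the 6 highest levels of the set in both lines. The most abundant of all was HSPB1 in C4-2B, at 1386 ± 45.5 RPKM (SD, n = 3), against 393 ± 11.1 RPKM in 22RV1. In 22RV1 the first place belonged to HSP90AB1, the constitutive cytosolic HSP90, with 612 ± 21.3 RPKM, against 477 ± 11.7 RPKM in C4-2B, where it was second. HSP90AA1, the inducible cytosolic form, had 272 ± 9.89 RPKM in C4-2B and 410 ± 23.3 RPKM in 22RV1. HSP90B1, the HSP90 of the endoplasmic reticulum, had 265 ± 7.58 RPKM in C4-2B and 374 ± 12.9 RPKM in 22RV1. All 3 HSP90 genes had lower control levels in C4-2B than in 22RV1, by more than the spread between replicates. HSPB1 had the opposite order.

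Among HSP70 genes, HSPA8, the constitutive cytosolic form, led the series in both lines, with 188 ± 5.12 RPKM in C4-2B controls and 314 ± 7.14 RPKM in 22RV1 controls. HSPA5, known as BiP in the endoplasmic reticulum, had 137 ± 3.73 RPKM in C4-2B and 218 ± 12.3 RPKM in 22RV1. HSPA9, the mitochondrial form, had 36.3 ± 0.669 RPKM in C4-2B and 68.0 ± 1.69 RPKM in 22RV1. The levels of HSPA4, an exchange factor of the HSP110 type, were close, at 43.3 ± 1.74 and 45.7 ± 2.56 RPKM in C4-2B and 22RV1. HSPA1A and HSPA1B, which encode the classical stress-inducible HSP70, are near-identical copies, and reads can be split between them in any proportion. HSPA1B had 33.0 ± 5.99 RPKM in C4-2B and 45.6 ± 2.54 RPKM in 22RV1, whereas HSPA1A had 0.270 ± 0.171 and 6.28 ± 0.904 RPKM. Of the exon length of HSPA1B, 36.5% is shared with AL671762.1 on the same strand. HSPH1, the exchange factor HSP105, had 14.0 ± 0.930 RPKM in C4-2B and 17.3 ± 1.33 RPKM in 22RV1.

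Several members had far lower control levels in C4-2B than in 22RV1. HSPB6, a small heat shock protein best known from muscle, averaged 16.4 ± 18.5 normalized read counts in C4-2B controls, where 1 of the 3 libraries held no read, against 6200 ± 421 in 22RV1 controls. HSPB8, which works with BAG3 in the removal of misfolded proteins, averaged 16.2 ± 9.13 in C4-2B controls and 1050 ± 78.0 in 22RV1 controls. The stress-inducible HSPA6 was read in 1 of the 3 C4-2B controls, at 18.3 normalized read counts, and stood at 144, 185 and 84.5 in the 3 22RV1 controls. DNAJA4, HSPA2 and DNAJC6 followed the same order, at 0.0564, 0.0315 and 0.0211 RPKM in C4-2B against 16.2, 5.34 and 3.54 RPKM in 22RV1. In the other direction HSPB11 was higher in C4-2B, at 14.9 ± 2.09 RPKM against 4.38 ± 1.27 RPKM in 22RV1. For each of these genes the values of the 3 C4-2B controls lay apart from those of the 3 22RV1 controls. Of the exon length of HSPB6, 38.2% is shared with AC002398.2 on the opposite strand. In such bulk libraries, fewer cells with a transcript and less of it per cell cannot be told apart.

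HSPD1 had 181 ± 6.64 RPKM in C4-2B controls and 390 ± 16.6 RPKM in 22RV1 controls, while HSPE1 had only 10.5 ± 1.33 and 8.07 ± 1.51 RPKM. The low level listed for HSPE1 is uncertain: by symbol it has 26 annotated pseudogenes, and its exons overlap those of HSPD1 on the opposite strand and of the readthrough gene HSPE1-MOB4. Normalized read counts assigned to the pseudogenes summed to 21.4 in C4-2B controls and 46.5 in 22RV1 controls, against 243 and 191 for HSPE1. How reads shared by these genes were counted is not given in the sources used here. The J-domain genes lay lower than HSPA8, HSPA5 and the HSP90 genes in both lines, though not all lay lower than HSPA9. DNAJA1, a cytosolic partner of HSPA8, led them in 22RV1 with 113 ± 4.62 RPKM, against 48.7 ± 1.75 RPKM in C4-2B. DNAJB1, the stress-inducible HSP40, had 48.3 ± 3.53 RPKM in C4-2B and 28.4 ± 2.22 RPKM in 22RV1. In the DNAJC series the leader was DNAJC8, a splicing-associated protein, in C4-2B (50.2 ± 2.94 RPKM) and DNAJC22 in 22RV1 (27.1 ± 2.14 RPKM). NUDC had 76.6 ± 1.69 RPKM in C4-2B and 35.8 ± 2.30 RPKM in 22RV1. No read was found in any of the 6 libraries for 5 members in C4-2B (DNAJB3, DNAJB8, DNAJC15, HSPB2 and HSPB3) and for 3 in 22RV1 (DNAJC15, HSPB2 and HSPB3). Of the 73 genes, 60 were tested in C4-2B and 66 in 22RV1, that is, had at least 10 normalized read counts in at least 3 of the 6 libraries of the line. The 6 tested only in 22RV1 were DNAJA4, DNAJB7, DNAJB13, DNAJC6, HSPA2 and HSPA6, and the 7 tested in neither were DNAJB3, DNAJB8, DNAJC15, HSPA7, HSPB2, HSPB3 and HSPB7.

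**Figure D1:**
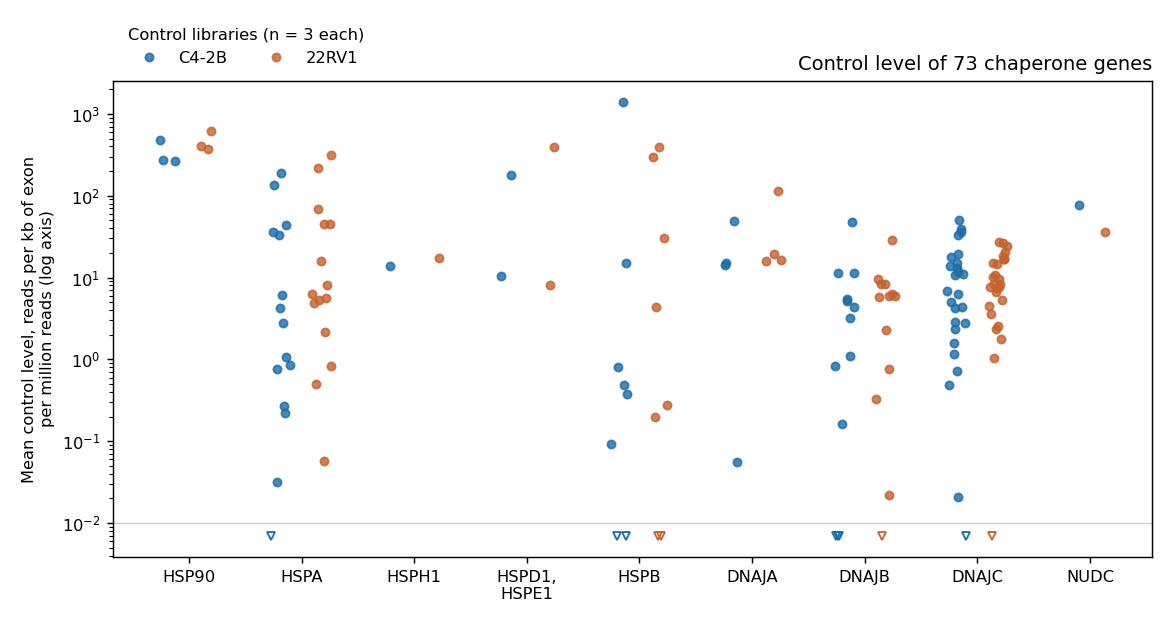
Mean control level of each of the 73 genes by family, in RPKM on a log axis; blue points are C4-2B and orange points 22RV1 (mean of 3 control libraries each), and open triangles under the line are genes below the axis break or without a read. HSPB1 is the top point in C4-2B at 1386 RPKM, and 2 further HSPB genes stand high in 22RV1 but low in C4-2B.

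With the 56-mer, HSPB1 and NUDC rose in C4-2B, and no lower value passed the limma threshold of an adjusted p under 0.05. Of the 60 members tested, 41 had higher and 19 lower values with 56-mer. HSPB1 (HSP27), the small heat shock protein that was already the most abundant member, was 1.21-fold higher, and NUDC was 1.32-fold higher. They were 2 of 60 members tested, beside 0.066% of the 16657 genes tested in this line (8 higher, 0.048%, and 3 lower, 0.018%). NUDC was placed in the set by name, and the members were chosen with earlier results of these data known. These shares are therefore a description only. Among the heat shock and J-domain genes only HSPB1 passed. HSPB1 had 33184, 31513 and 31319 normalized read counts in the 3 56-mer libraries, against 27614, 26071 and 25540 in the 3 controls. Every 56-mer library lay above every control, and the means were 32005 ± 1025 with 56-mer and 26408 ± 1078 in controls (SD, n = 3 each). The log2 change was 0.28 ± 0.050 (SE; 95% interval 0.17 to 0.38; limma adjusted p = 0.0254). NUDC had 3493, 3335 and 3254 normalized read counts with 56-mer, against 2631, 2504 and 2518 in controls. Here too the groups were apart, and the log2 change was 0.40 ± 0.077 (95% interval 0.24 to 0.56; limma adjusted p = 0.0395).

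Both calls were sensitive to the treatment of the data, although both genes were higher in every setting tried. With quantile normalization the log2 change of HSPB1 was 0.14 (limma adjusted p = 0.260) and that of NUDC 0.34 (0.0966). After correction of each library for GC content and transcript length they were 0.15 (0.292) and 0.32 (0.0662). HSPB1 has a GC content of 64.3% and a longest transcript of 1455 bases, and NUDC of 55.9% and 1800 bases, against medians of 49.3% and 3032 bases over the genes tested in C4-2B. Without the 56-mer 1 library, HSPB1 had a log2 change of 0.25 (limma adjusted p = 6.45e-05) and NUDC one of 0.37 (0.00362). In that fit 81 genes passed in all. Leaving out any 1 of the other 5 libraries ended both calls, and no gene at all passed in those fits. The log2 changes there were 0.25 to 0.31 for HSPB1 (limma adjusted p of 0.10 to 0.554) and 0.38 to 0.42 for NUDC (0.114 to 0.554). On the reads recovered from the normalized values, DESeq2 called both genes (adjusted p of 0.00619 for HSPB1 and 3.8e-04 for NUDC), as did limma-voom, and edgeR called neither (log2 changes of 0.28 and 0.40, adjusted p of 0.116 and 0.159). Of all genes tested, DESeq2 called 0.252%, limma-voom 0.084% and edgeR 0.0%. The exons of NUDC overlap those of GPATCH3 on the opposite strand over 5.71% of their length, and whether the counting used strand is not given in the sources used here.

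**Figure D2:**
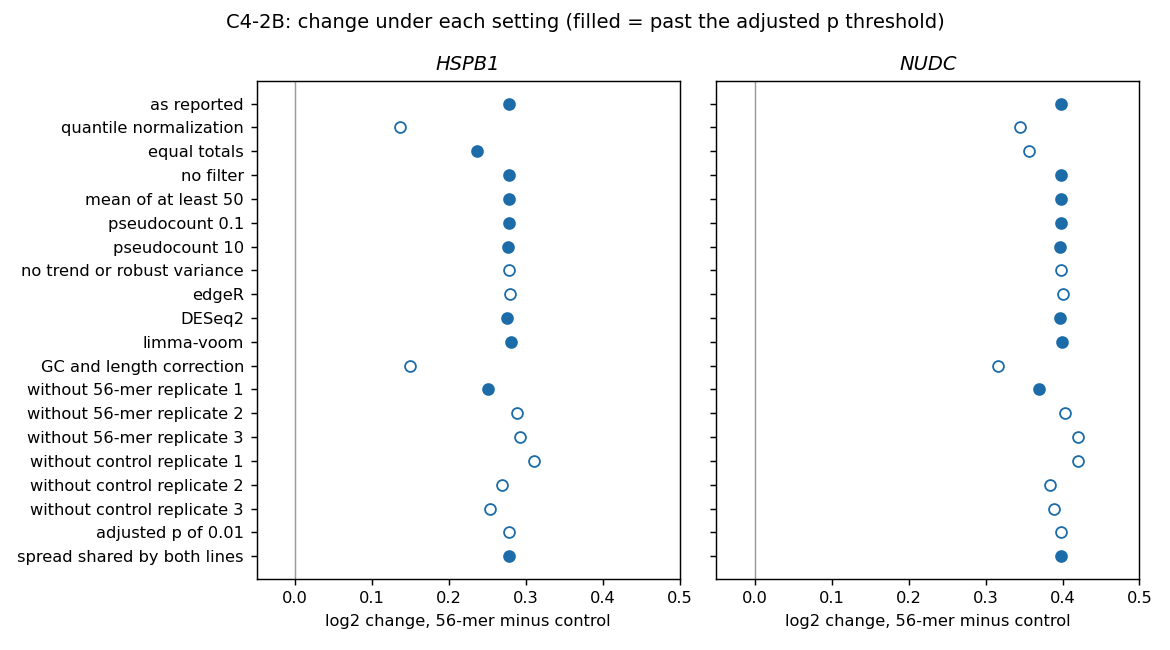
Log2 change (56-mer minus control) of HSPB1 and NUDC in C4-2B under each of the 20 settings tried, with filled points past the adjusted p threshold and open points short of it. All points lie right of 0; the change of HSPB1 is 0.14 with quantile normalization and 0.15 with the GC and length correction, against 0.28 as reported.

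The stretches upstream of these 2 genes are shown because both hold a short match to the unit pattern of heat shock elements, the binding sites of HSF1. Neither gene is among the members with the longer 3-unit form given below. The search was for 2 inverted GAA units in either arrangement, GAANNTTC or TTCNNGAA, each of which is its own reverse complement, so that 1 search covers both strands. The windows are those of RefSeq (GRCh38.p14), 250 bases before to 50 after the annotated start. What is printed is the part before the start that lies outside annotated exons, 5′ to 3′ on the strand of the gene, with the match in capitals. For HSPB1 it is chr7:76302423-76302543 (plus strand), and the match begins 182 bases before the start. For NUDC it is chr1:26921493-26921725 (plus strand), and the match begins 237 bases before the start.
HSPB1: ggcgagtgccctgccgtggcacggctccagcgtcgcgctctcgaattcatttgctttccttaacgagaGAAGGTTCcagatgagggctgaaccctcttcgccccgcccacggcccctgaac
NUDC: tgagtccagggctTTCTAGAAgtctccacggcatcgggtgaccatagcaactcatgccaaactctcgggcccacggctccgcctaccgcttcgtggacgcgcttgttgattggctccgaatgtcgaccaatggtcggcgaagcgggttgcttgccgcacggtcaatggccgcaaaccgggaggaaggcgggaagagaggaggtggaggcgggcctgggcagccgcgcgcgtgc

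Matches of this kind are common in the set. A promoter was found for 64 of the 73 members, and 23 of these (35.9%) held a 2-unit match in at least 1 of their windows, against 16.2% of the 27305 genes in the RefSeq table. The longer forms with 3 units, in which a further inverted unit follows after the same gap of 2 bases, contain the 2-unit forms; their arrangements are reverse complements of each other. They were held by 7 members (10.9%), against 0.608% of all genes. The 7 are HSP90AA1, HSP90AB1, HSPA6, HSPA8, HSPD1, DNAJA1 and DNAJB6. Elements of 4 of them are shown as examples, from an HSP90 gene, the constitutive and an inducible HSP70 gene and the mitochondrial chaperonin. They lie at chr6:44247823-44247851 (plus strand) for HSP90AB1, chr11:123062171-123062199 (minus strand) for HSPA8, chr2:197500062-197500090 (minus strand) for HSPD1 and chr1:161524458-161524486 (plus strand) for HSPA6, with the matched bases in capitals.
HSP90AB1: tgagattgTTCTGGAAGCTTCtggattct
HSPA8: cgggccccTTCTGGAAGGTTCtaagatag
HSPD1: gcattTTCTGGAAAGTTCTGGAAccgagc
HSPA6: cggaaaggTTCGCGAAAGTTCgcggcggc

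Members with and without such matches had median changes near 0 with the 56-mer. In C4-2B the 6 tested members with a 3-unit match had a median log2 change of 0.0025 (range −0.16 to 0.11), the 11 with only a 2-unit match 0.0031 (range −0.72 to 0.40), and the 37 with no match 0.062. HSPB1 and NUDC belong to the 11, as do HSPA4L and DNAJB4, whose values were lower with 56-mer. In 22RV1 the medians were 0.027 for 7 members with a 3-unit match, 0.036 for 14 with only a 2-unit match and 0.015 for 39 with none. A match to these letters is a description of the sequence, and binding was not measured.

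The remaining heat shock proteins of C4-2B showed small differences that did not pass the threshold. HSP90AA1 had 19051, 17120 and 17723 normalized read counts with 56-mer, against 17331, 16023 and 16508 in controls. The groups overlapped, and the log2 change was 0.11 ± 0.057 (limma adjusted p = 0.580). HSP90AB1 had a log2 change of 0.056 ± 0.056 and HSP90B1 one of 0.043 ± 0.057, both with overlapping groups. For these 3 genes the 95% intervals lay within −0.073 and 0.23. The HSPB1 change of 0.28 is outside this range. Its changes of 0.14 with quantile normalization and 0.15 with the GC and length correction are inside it. A difference between HSPB1 and these genes was not tested. HSPA8 had 10603, 10089 and 10462 with 56-mer, against 10572, 10963 and 10296 in controls, a log2 change of −0.031 ± 0.059. HSPA5 had 6781, 6517 and 6548 with 56-mer, against 6149, 6435 and 6102 in controls. All 3 of its 56-mer libraries lay above all controls, by a log2 change of 0.087 ± 0.065 that did not pass (limma adjusted p = 0.725). HSPA9 had a log2 change of 0.0031 ± 0.076, HSPD1 0.036 ± 0.066, HSPE1 0.082 ± 0.20 and HSPH1 0.010 ± 0.10, all with overlapping groups. The inducible HSPA1B had 960, 1027 and 980 with 56-mer, against 1084, 768 and 1056 in controls, a log2 change of 0.046 ± 0.12. The sum of HSPA1A and HSPA1B, which does not depend on how reads are split between the copies, averaged 83.1 ± 3.87 RPM (the RPKM value before division by length) with 56-mer and 83.8 ± 14.9 in controls. This sum can still depend on whether reads that match both copies were counted at all, and on the counting of reads shared with AL671762.1. Neither was tested.

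HSPA4L showed the clearest lower value among the HSP70 relatives of C4-2B. This exchange factor of the HSP110 type, known from the testis, had 249.0, 261 and 278 normalized read counts with 56-mer, against 404, 333 and 387 in controls. The groups did not overlap, but the log2 change of −0.51 ± 0.16 did not pass (limma adjusted p = 0.392). Of the 12 tested HSPA genes, 7 were higher and 5 lower with 56-mer, with a median log2 change of 0.011. In the HSPB series only HSPB1 passed. HSPB11, an outlying member that belongs to the intraflagellar transport machinery, had a log2 change of 0.085 ± 0.14, and HSPB6, HSPB8 and HSPB9 held too few reads in C4-2B for a useful estimate, with SE of 1.4, 0.76 and 1.3.

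None of the 36 tested J-domain genes of C4-2B passed; 23 were higher and 13 lower with 56-mer, and their median log2 change was 0.048. DNAJB4, a cytosolic partner of HSP70, had 90.2, 81.1 and 82.8 normalized read counts with 56-mer, against 130, 122 and 174 in controls. Its groups were apart, with a log2 change of −0.72 ± 0.26 (limma adjusted p = 0.452). DNAJC13, which acts at endosomes, had 198, 245 and 250 with 56-mer, against 304, 265 and 358 in controls, a log2 change of −0.41 ± 0.18 without overlap. DNAJC5, the synaptic vesicle protein CSP alpha, had 2022, 2178 and 2244 with 56-mer, against 2388, 2394 and 2462 in controls, a log2 change of −0.17 ± 0.082 without overlap. All 3 genes had lower values in every 56-mer library than in any control.

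DNAJC4 and DNAJB2 had the opposite order. DNAJC4, a little-studied J protein, had 511, 520 and 629 normalized read counts with 56-mer, against 438, 444 and 411 in controls, with a log2 change of 0.35 ± 0.14 (limma adjusted p = 0.467). DNAJB2, which sorts clients of HSP70 to the proteasome, had 877, 987 and 934 with 56-mer, against 816, 686 and 856 in controls, a log2 change of 0.25 ± 0.12 (limma adjusted p = 0.542). All their 56-mer libraries lay above the controls. Of the exon length of DNAJC4, 10.6% is shared with NUDT22 on the same strand. The stress-inducible DNAJB1 had 2098, 1926 and 2165 with 56-mer, against 2154, 2176 and 1876 in controls, a log2 change of −0.0024 ± 0.089 with overlapping groups. DNAJA1 had a log2 change of −0.055 ± 0.095 and DNAJC8 one of 0.046 ± 0.090. The stress-responsive partners of BiP, DNAJB9 and DNAJC3, had log2 changes of −0.14 ± 0.22 and 0.15 ± 0.16, with overlapping groups.

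Across the set in C4-2B, 8 of 60 members had an unadjusted limma p under 0.05, 4 higher and 4 lower with 56-mer, or 13.3% beside 8.92% of all tested genes (4.89% higher, 4.03% lower). The groups did not overlap for 12 members, 6 in each direction, or 20.0% beside 14.7% of all tested genes (7.59% higher, 7.08% lower). Of the members, 68.3% had a higher value with 56-mer, against 48.3% of all tested genes, and their median log2 change was 0.048, against −0.011 over all tested genes. The 20 members with a mean of at least 1000 had a median of 0.045 and 75.0% of them were higher, beside a median of 0.053 and 63.8% higher for the 2524 genes with such a mean. The part of abundance in these shares was not tested. Without the 56-mer 1 library the median of the members was 0.0055 and that of all genes 0.0033, with 31 of 60 members higher.

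**Figure D3:**
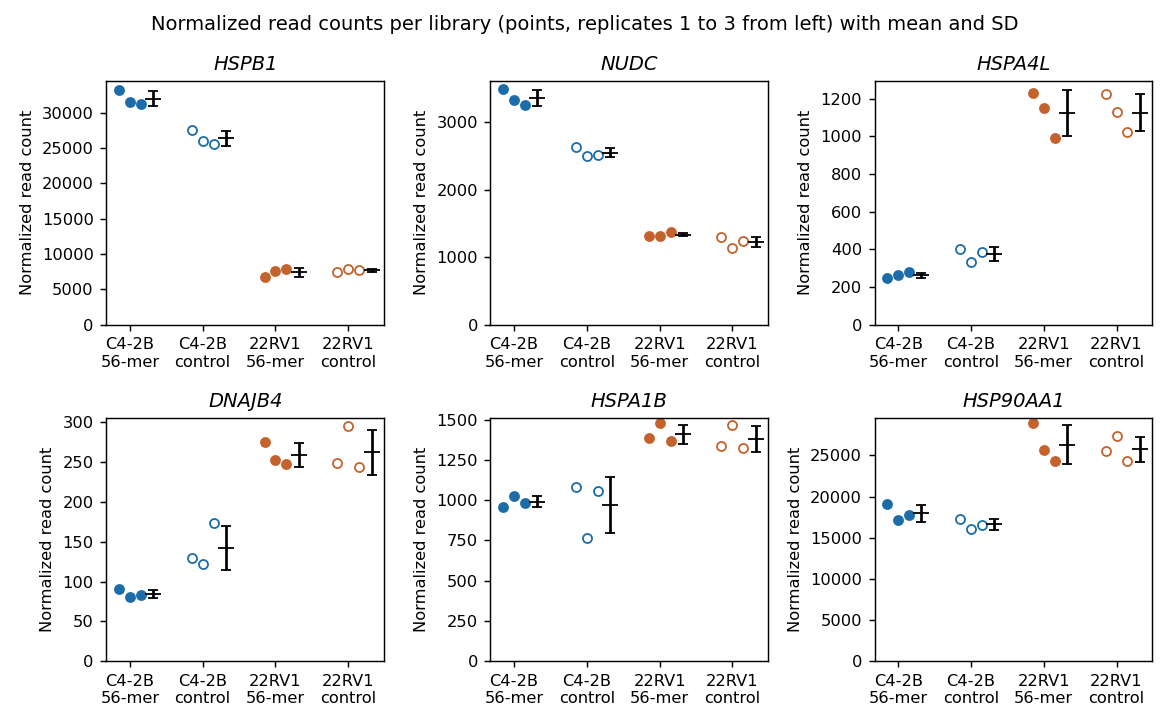
Normalized read counts of HSPB1, NUDC, HSPA4L, DNAJB4, HSPA1B and HSP90AA1 in each library, with the mean and SD of each group of 3 beside the points (filled, 56-mer; open, control; blue, C4-2B; orange, 22RV1). In C4-2B the HSPB1 and NUDC points with 56-mer are all above the controls and those of HSPA4L and DNAJB4 all below; in 22RV1 the groups overlap for every gene shown but NUDC.

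In 22RV1 no member passed the threshold. All 66 tested members had a limma adjusted p of 0.9996, beside 0.00975% of the 20517 genes tested that passed (2 genes, both higher with 56-mer). With unadjusted limma p under 0.05 there were 4 members, 2 higher and 2 lower, or 6.06% beside 3.91% of all tested genes (1.76% higher, 2.15% lower), and DESeq2, edgeR and limma-voom on the recovered reads called none. HSPB1 had 6731, 7623 and 7913 normalized read counts with 56-mer, against 7429, 7822 and 7799 in controls. The groups overlapped, with a log2 change of −0.053 ± 0.059 (95% interval −0.17 to 0.066). NUDC had 1320, 1321 and 1368 with 56-mer, against 1293, 1142 and 1237 in controls. These groups were apart, the log2 change being 0.13 ± 0.086 (95% interval −0.045 to 0.30).

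Of the heat shock proteins in 22RV1, the inducible HSPA6 and HSPA1A had higher means with 56-mer, with overlapping groups. HSPA6 had 189, 254 and 144 normalized read counts with 56-mer, against 144, 185 and 84.5 in controls, a log2 change of 0.54 ± 0.22, one of the 4 members with an unadjusted limma p under 0.05. HSPA1A had 260, 239 and 211 with 56-mer, against 163, 182 and 216 in controls, a log2 change of 0.34 ± 0.17, also among those 4. The near-identical HSPA1B had 1383, 1476 and 1366 with 56-mer, against 1337, 1469 and 1324 in controls. Summed over both copies, the level was 136 ± 5.44 RPM with 56-mer and 130 ± 6.23 in controls. The log2 changes of the HSP90 genes were 0.028 ± 0.051 for HSP90AA1, 0.035 ± 0.046 for HSP90AB1 and 0.064 ± 0.056 for HSP90B1. HSPA8 had 0.015 ± 0.048, HSPA5 0.012 ± 0.056, HSPA9 0.063 ± 0.058 and HSPD1 0.014 ± 0.050. HSPE1 had 0.10 ± 0.18 and HSPH1 0.0023 ± 0.085. HSPB6 had 5457, 6151 and 5341 with 56-mer, against 6043, 6677 and 5880 in controls, a log2 change of −0.13 ± 0.063 with overlapping groups. HSPB8 had a log2 change of −0.078 ± 0.093.

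The J-domain genes of 22RV1 were split, 23 higher and 17 lower with 56-mer among the 40 tested. DNAJC17, linked to transcription and splicing, had 447, 463 and 476 normalized read counts with 56-mer, against 550, 521 and 596 in controls. Its groups were apart, with a log2 change of −0.26 ± 0.11, but 20.4% of its exon length is shared with GCHFR on the opposite strand. DNAJA1 had a log2 change of 0.027 ± 0.066, DNAJB1 0.11 ± 0.089, DNAJB9 0.015 ± 0.15, DNAJC3 0.031 ± 0.090 and DNAJC22 0.046 ± 0.081, all with overlapping groups. In all, 3 of 66 members had groups that did not overlap (DNAJC8 and NUDC higher, DNAJC17 lower), or 4.55% beside 9.03% of all tested genes (4.45% higher, 4.58% lower). Of the members, 65.2% had a higher value with 56-mer, against 49.4% of all tested genes, and their median log2 change was 0.027, against −0.0026 over all tested genes. The 28 members with a mean of at least 1000 had a median of 0.027 and 71.4% of them were higher, beside 0.013 and 57.0% for the 2939 genes with such a mean. The median of all tested members was −0.016 without the 56-mer 1 library, which stood apart in this line, with 31 of 66 members higher.

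**Figure D4:**
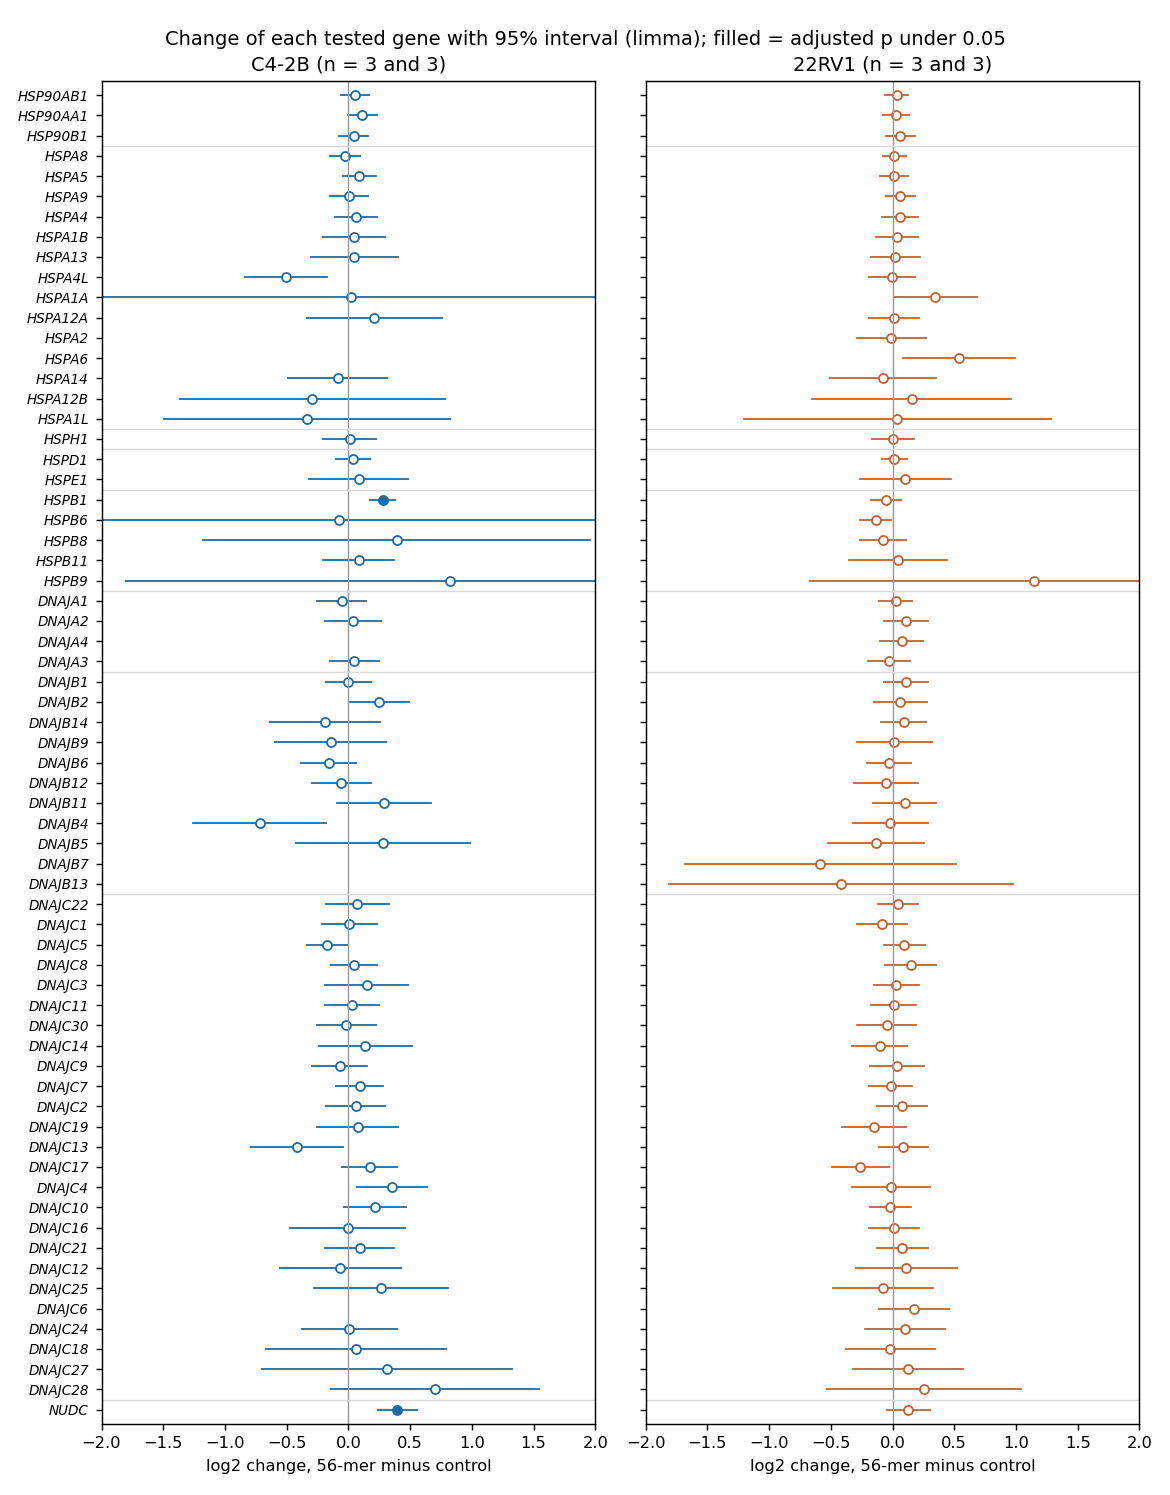
Log2 change with 56-mer and its 95% interval (limma, n = 3 and 3) for every tested member, C4-2B left and 22RV1 right, ordered by family and by level; filled points passed the adjusted p threshold, and intervals that reach the edge of the axis extend past it. The filled points are HSPB1 at 0.28 and NUDC at 0.40, both in C4-2B.

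Whether the lines differ in their change was tested directly in 1 fit of the 12 libraries over the 15527 genes tested in both. No gene passed (0.0% of genes, 0 of 60 members), by limma with an adjusted p under 0.05; on the recovered reads DESeq2 called 11 genes, limma-voom 3 and edgeR 1, none of them members. At an unadjusted p under 0.05 there were 7 of 60 members, beside 7.90% of all genes. The difference was 0.33 ± 0.081 for HSPB1 (log2 change in C4-2B minus that in 22RV1; 95% interval 0.16 to 0.50; limma adjusted p = 0.534). For NUDC it was 0.27 ± 0.11 (limma adjusted p = 0.594), for HSPA4L −0.50 ± 0.17, for DNAJB4 −0.70 ± 0.27, for DNAJC13 −0.50 ± 0.20, for DNAJC5 −0.27 ± 0.11 and for DNAJC17 0.43 ± 0.15. The call of HSPB1 and NUDC in C4-2B alone is therefore not shown to be a difference between the lines.

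Summed by family, the reads of the HSPB genes in C4-2B came to 2798, 2696 and 2668 RPM with 56-mer, against 2408, 2272 and 2270 RPM in controls, nearly all of them from HSPB1. NUDC came to 289, 279 and 272 RPM with 56-mer, against 224, 214 and 218 in controls. These sums restate the values of the 2 genes already given. HSP90 came to 4381, 4045 and 4118 RPM with 56-mer, against 4170, 4021 and 4089 in controls, and the HSPA genes to 2154, 2052 and 2093, against 2139, 2161 and 2134. In 22RV1 the HSPB sum was 1177 ± 84.4 RPM with 56-mer and 1262 ± 39.2 in controls (SD, n = 3 each), and the HSP90 sum 5840 ± 390 and 5732 ± 138. All 73 genes together made up 12292 ± 389 RPM with 56-mer and 11814 ± 173 in controls of C4-2B, and 15190 ± 636 with 56-mer and 15104 ± 250 in controls of 22RV1.

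The wider chaperone network was read from a list of 59 genes, 57 of them tested in C4-2B and 56 in 22RV1, and none passed in either line by limma, DESeq2, edgeR or limma-voom. At an unadjusted limma p under 0.05 there were 6 of them in C4-2B, all higher with 56-mer (10.5%, beside 8.92% of all tested genes in either direction and 4.89% higher), and 2 in 22RV1, 1 in each direction (3.57%, beside 3.91% of all tested genes). In C4-2B 39 (68.4%) were higher and 18 lower with 56-mer, with a median log2 change of 0.064, and in 22RV1 34 (60.7%) were higher and 22 lower, with a median of 0.019. Over all tested genes 48.3% were higher in C4-2B and 49.4% in 22RV1, and over those with a mean of at least 1000 63.8% and 57.0%. All 8 subunits of TRiC, the cytosolic chaperonin that folds actin and tubulin, had higher means with 56-mer in both lines, with medians of 0.071 in C4-2B and 0.035 in 22RV1. The smallest of these log2 changes were near 0, at 0.0050 for CCT2 in C4-2B and 0.0047 for CCT6A in 22RV1. Counts of this list are not given with libraries left out. The largest TRiC difference was in CCT3, which averaged 5603 normalized read counts with 56-mer and 4793 in controls of C4-2B (log2 change 0.23 ± 0.070, limma adjusted p = 0.347). The HSP90 and HSP70 co-chaperones had 17 of 25 genes higher in C4-2B, among them SGTA, which hands tail-anchored proteins on (0.22 ± 0.078, limma adjusted p = 0.453). HSF1 itself had a log2 change of 0.046 ± 0.10 in C4-2B. In C4-2B the relatives of NUDC did not share its order. There NUDCD1, NUDCD2 and NUDCD3 all had lower means with 56-mer, with log2 changes of −0.23 to −0.021 and none past the threshold. In 22RV1, where NUDC had a higher mean with 56-mer, 1 relative was higher and 2 were lower. The higher one, NUDCD1, had a log2 change of 0.26 with groups apart and did not pass.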

How the data were processed

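The authors deposited 1 table of normalized values and 1 comparison table per line. The deposited values are signal, read counts divided by 1 size factor per library: per the values themselves, 100% of them are whole multiples of a step within a tolerance of 0.01, and the reads were recovered from these steps. Per the submitters' processing notes DESeq was used; the sources used here name no aligner, counting tool, build or annotation. The authors' comparison tables give log2 fold changes with standard errors, a score and p-values, per the file headers.

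A gene entered the test of a line where 3 or more of its 6 libraries held a value of at least 10. The test was that of limma 3.58.1, run in R 4.3.3 with trend and robust variance, on log2(value + 1), 56-mer against control, two-sided, adjusted by Benjamini-Hochberg over all tested genes with a threshold of 0.05. A fold change on this scale understates that of low genes. Errors are SD for means and SE for log2 changes. RPKM used recovered reads and GENCODE 29 exon lengths, matched by symbol for 73 of 73 members. Alternatives were quantile normalization, equal totals, other filters and pseudocounts, edgeR 4.0.16, DESeq2 1.42.0, limma-voom, a lowess correction (span 0.3) for GC content and length, 1 spread for both lines and leaving out each library. The fits were run on simulated data with the same spread setting for all genes and no trend with GC content or length. That check therefore does not cover the trends described above.

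The series text calls the libraries biological triplicates; replicate numbers follow the order of the records. The members, the chaperone list and the tests were chosen with earlier results of these data known. Values are given for members past the threshold, up to 8 members per line with an unadjusted p under 0.05 and groups apart, the highest of each family and members named for their roles. Others named for their level (among them HSPA2, HSPA4, HSPA6, HSPB6, HSPB11, DNAJA4 and DNAJC6) were chosen after their values were seen. No interval is given for single counts, since the spread between libraries was used. The 1 entry without a symbol held 0 reads.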

Additional observations from a re-analysis of the deposited data

How the results depend on the processing

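The count of 2 members called in C4-2B was 0 with quantile normalization, without trend or robust variance, with edgeR, with the GC and length correction and at an adjusted p of 0.01, and 1 (HSPB1) with equal totals. It ranged from 0 to 2 when 1 library was left out, and stayed at 2 with the other filters and pseudocounts, DESeq2, limma-voom and 1 spread for both lines. A stricter threshold lowers the count by construction; for the other settings the cause was not tested. In 22RV1 and for the difference between the lines the count was 0 in every setting run. The median log2 change of the members ranged from 0.0055 to 0.085 in C4-2B and from −0.016 to 0.050 in 22RV1 when 1 library was left out. No paired analysis was possible because nothing in the labels ties a 56-mer library to a control.

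Of 54 log2 changes of named members, 24 kept 1 sign in every setting, HSPB1 and NUDC in C4-2B among them; 76 of 1012 values took the other sign, none of them a called value. With quantile normalization these were, in C4-2B, HSP90AB1 −0.036, HSP90B1 −0.063, HSPA1A −0.0083, HSPA9 −0.051, HSPD1 −0.030 and HSPH1 −0.015, and in 22RV1 HSPA5 −0.0073 and HSPH1 −0.017. With equal totals they were, in C4-2B, HSPA1A −0.016, HSPA9 −0.038, HSPD1 −0.0055 and HSPH1 −0.031, and in 22RV1 DNAJB9 −0.0012, HSPA5 −0.0046, HSPA8 −0.0014, HSPD1 −0.0026 and HSPH1 −0.014. With the GC and length correction they were HSPA1A −0.047 and HSPA1B −0.014 in C4-2B, and DNAJB9 −0.0037, DNAJC4 0.026, HSPB1 0.0018 and HSPH1 −0.025 in 22RV1. In C4-2B HSPA1A also had −0.0081 with a pseudocount of 10, −0.026 with edgeR and −0.0084 with limma-voom, and DNAJB1 0.0053 with limma-voom.

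Leaving out 1 library turned the sign of these log2 changes, given with the lowest and highest value. In C4-2B they were DNAJA1 (−0.098 to 0.019), DNAJB1 (−0.071 to 0.046), DNAJC22 (−0.013 to 0.17), HSPA1A (−0.61 to 0.49), HSPA1B (−0.11 to 0.13), HSPA9 (−0.044 to 0.040), HSPB8 (−0.19 to 1.05), HSPD1 (−0.030 to 0.083), HSPE1 (−0.081 to 0.26) and HSPH1 (−0.094 to 0.091). In 22RV1 they were DNAJA1 (−0.027 to 0.056), DNAJB2 (−0.027 to 0.15), DNAJB4 (−0.068 to 0.068), DNAJB9 (−0.14 to 0.11), DNAJC3 (−0.063 to 0.096), DNAJC4 (−0.10 to 0.14), DNAJC13 (−0.038 to 0.19), DNAJC22 (−0.016 to 0.093), HSP90AA1 (−0.043 to 0.082), HSP90B1 (−0.027 to 0.14), HSPA1B (−0.00054 to 0.081), HSPA4L (−0.072 to 0.082), HSPA5 (−0.028 to 0.070), HSPA8 (−0.027 to 0.047), HSPB1 (−0.10 to 0.016), HSPD1 (−0.046 to 0.062), HSPE1 (−0.10 to 0.26) and HSPH1 (−0.083 to 0.079).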

Other observations

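The authors' deposited table for C4-2B lists 68 of the 73 members and that for 22RV1 lists 70. In the authors' deposited table for C4-2B no member has an adjusted p under 0.05, the lowest being 0.673 for NUDC, and 7 members (10.3%) have an unadjusted p under 0.05, beside 5.00% of the 28774 genes with a p in it. NUDC has a log2 fold change of 0.40 ± 0.076 (SE) in the authors' deposited table for C4-2B, and HSPB1 one of 0.28 ± 0.057 with an adjusted p of 1.0. The unadjusted p of the authors' DESeq comparison is 1.9e-07 for NUDC and 1.2e-06 for HSPB1. The deposited adjusted p is not the Benjamini-Hochberg value of these p-values, and how it was made is not stated in the sources used here. In the authors' deposited table for 22RV1, 2 members (2.86%) have an unadjusted p under 0.05, beside 2.07% of the 38270 genes with a p in it. They are DNAJC17 and HSPB6, both lower with 56-mer in the authors' deposited table.

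SIL1, the exchange factor of BiP, had opposite orders in the lines. It averaged 1703 normalized read counts with 56-mer and 1489 in controls of C4-2B, and 371 with 56-mer and 457 in controls of 22RV1, and the groups were apart in both lines. The log2 changes were 0.19 ± 0.092 in C4-2B and −0.31 ± 0.13 in 22RV1, neither of which passed (limma adjusted p of 0.558 and 0.9996). SIL1 did not pass the limma test of the difference between the lines. It was singled out after its values were seen.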
